A study of Mus musculus with 31 samples.

Results

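The nuclear-encoded genes of the mitochondrial respiratory chain were followed in mRNA, in ribosome footprints and in translational efficiency in mouse cortex. The genes were chosen by symbol: every symbol that begins with Nduf, Cox4 to Cox8, Uqcr or Atp5, together with Sdha, Sdhb, Sdhc and Sdhd, and that had a mean of 1 CPM or more (counts on the counts-per-million scale) in wild-type mRNA. Of the 20436 gene symbols in each count table, 92 matched and 90 passed the level. Cox8b, a muscle-type subunit of complex IV with a mean of 0.346 CPM, and Cox8c, listed at 0, lay outside it, and Cox7b2 (1.12 CPM) and Cox6b2 (1.45 CPM) lay just inside. The 90 members were 36 subunits of complex I (7 core and 29 accessory), 4 of complex II, 8 of complex III, 16 of complex IV and 15 of complex V (5 of the F1 head and 10 of the membrane part and stalk), 7 Ndufaf assembly factors of complex I, and 4 other proteins (Cox7a2l, Ndufa4l2, Atp5s and Atp5sl). Ndufa4 was placed in complex IV, of which it is now known to be a subunit.

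The libraries came from dissected cortex of mice aged P29 to P34 and covered 4 genotypes: wild type (WT), mice lacking the fragile X syndrome gene Fmr1 (FXS), mice lacking Rps6kb1, which encodes a kinase of ribosomal protein S6 (S6K1), and double mutants lacking Fmr1 as well as Rps6kb1 (DKO). Footprints, the stretches of mRNA that ribosomes protect from nuclease, were sequenced in 15 libraries (4 WT, 5 FXS, 3 S6K1 and 3 DKO), and polyadenylated mRNA in 16 libraries (4 of each genotype). The labels give no allele, strain, sex or pooling of animals, and do not say whether both kinds of library came from the same animals. The question behind the design is which changes in translation in the Fmr1-deficient cortex depend on S6K1.

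The respiratory chain passes electrons from NADH (complex I) and succinate (complex II) through complex III and cytochrome c to oxygen at complex IV. Complexes I, III and IV pump protons, and complex V, the ATP synthase, uses the proton gradient to make ATP. Neurons draw most of their ATP from this pathway. Apart from complex II, each complex mixes subunits encoded in the nucleus, translated by cytosolic ribosomes and imported, with subunits encoded in mitochondrial DNA; no gene of mitochondrial DNA is in the tables used here.

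Many nuclear respiratory genes are known to carry binding sites of nuclear respiratory factor 1 (NRF1) in their promoters, so the stretches before the start sites were read to show what members of several complexes share. RefSeq promoter entries (GRCm38.p6) were matched for 75 of the 90 members. The NRF1 motif (the letters GCGC, then any base, then TGCGC) was searched on both strands in the 250 bases before the start. A gene counted if any of its entries matched. The motif was present in 14 of these 75 members (18.7%). Its share was 8.55% of the 10754 genes tested in mRNA that have a promoter entry, and 4.23% of all 27025 genes with one. It was found in 6 of 32 complex I genes, 2 of 3 of complex II (Sdha and Sdhd), 0 of 5 of complex III, 1 of 12 of complex IV and 4 of 14 of complex V. The 7-letter core CCGGAAG of ETS-type factors, searched in the same way, was present in 13 of 75 (17.3%), against 14.2% of the tested genes with an entry. Of each class with a match, 1 example is shown 5′ to 3′ along the gene's strand with the motif letters in capitals. These are the promoter of Ndufa8, an accessory subunit of complex I (chr2:36049339-36049413, minus strand), Sdha, the flavoprotein of complex II (chr13:74350284-74350383, minus), Cox6a1, a complex IV subunit (chr5:115349066-115349165, minus), Atp5h, a stalk subunit of complex V (chr11:115420006-115420105, minus), and Ndufaf4, an assembly factor of complex I (chr4:24897925-24898024, plus).
Ndufa8: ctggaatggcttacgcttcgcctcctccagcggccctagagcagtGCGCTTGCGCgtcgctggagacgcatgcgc
Sdha: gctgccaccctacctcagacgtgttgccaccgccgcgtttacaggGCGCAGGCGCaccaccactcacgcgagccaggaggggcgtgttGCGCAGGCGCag
Cox6a1: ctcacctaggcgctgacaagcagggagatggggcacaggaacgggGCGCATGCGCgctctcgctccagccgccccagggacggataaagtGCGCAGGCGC
Atp5h: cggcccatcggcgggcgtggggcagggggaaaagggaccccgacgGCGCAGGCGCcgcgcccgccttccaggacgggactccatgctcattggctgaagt
Ndufaf4: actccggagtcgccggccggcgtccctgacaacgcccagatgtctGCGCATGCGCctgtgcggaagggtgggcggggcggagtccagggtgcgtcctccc
The first match ended 20 bases before the start in Ndufa8, 88 in Sdha, 152 in Cox6a1, 131 in Atp5h and 103 in Ndufaf4. A match is a description of the letters and not a measured binding site. The 14 members with a match had a median mRNA change in FXS against WT of -0.12 (log2), and the 61 without one -0.11, so members with and without these letters had close medians.

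Total counts ran from 12.1 to 17.3 M per mRNA library and from 16.6 to 34.9 M per footprint library (M, the unit that CPM divides by), and the members took 1.91 to 2.36% of the counts of an mRNA library and 2.01 to 2.31% of those of a footprint library. The targeted genes followed the labels. For Fmr1, the genotypes lacking it held 16.4 ± 3.96 (FXS; SD, n = 4) and 15.3 ± 4.56 (DKO) CPM of mRNA, beside 67.6 ± 9.71 for WT. For Rps6kb1, footprints stood at 10.2 ± 2.58 CPM for S6K1 (n = 3) and 11.6 ± 0.352 for DKO (n = 3), beside 28.9 ± 2.48 for WT (n = 4), while S6K1 libraries kept 33.6 ± 6.91 CPM of its mRNA. Footprint batch 1 held only S6K1 replicate 1 and DKO replicate 1, with no WT or FXS library. Footprints of DKO and WT were sequenced side by side only in batches 3 and 4, those of S6K1 and WT only in batches 2 and 3. In fits with a batch term, footprint and translational efficiency values of either mutant against WT thus rest directly on its replicates 2 and 3. The batch 1 libraries enter those fits only through their difference from each other. In bulk cortex, fewer cells of a type and less RNA per cell cannot be told apart.

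In WT cortex, the ratio of footprints to mRNA of respiratory chain genes differed several-fold within each of complexes I, III, IV and V. Translational efficiency (TE) is here the ratio of footprint CPM to mRNA CPM of the same gene, so that a ratio can be set beside that of another gene without its length. The median TE of the 89 members measured in both assays was 0.838, against 0.801 over all 13654 genes, and 49 of the 89 lay above the median of all genes. All 4 complex II mRNAs lay above it (median 1.35), from Sdhb, the iron-sulfur subunit, at 1.04 to Sdhd, a membrane anchor, at 1.56. In complex I the 7 core subunits, which carry the redox centres, had a median of 1.09, and the 29 accessory subunits 0.693. In complex V the 5 subunits of the F1 head had a median of 1.58 and the 10 of the membrane part and stalk 0.856. Complex III stood at a median of 1.09, complex IV at 0.712 and the assembly factors at 0.760. For comparison, mitochondrial ribosomal proteins had a median of 0.836, proteasome subunits 1.18 and cytosolic ribosomal proteins, whose mRNAs are known for low ribosome loading, 0.320. The SD of log2 TE in WT was 0.65 over the members, less than the 1.13 over all genes. It was 0.57 for mitochondrial ribosomal proteins, 0.47 for proteasome subunits and 0.77 for cytosolic ribosomal proteins. A smaller SD than that of all genes was thus not particular to the members. These are descriptions over genes, with no test.

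**Figure D1:**
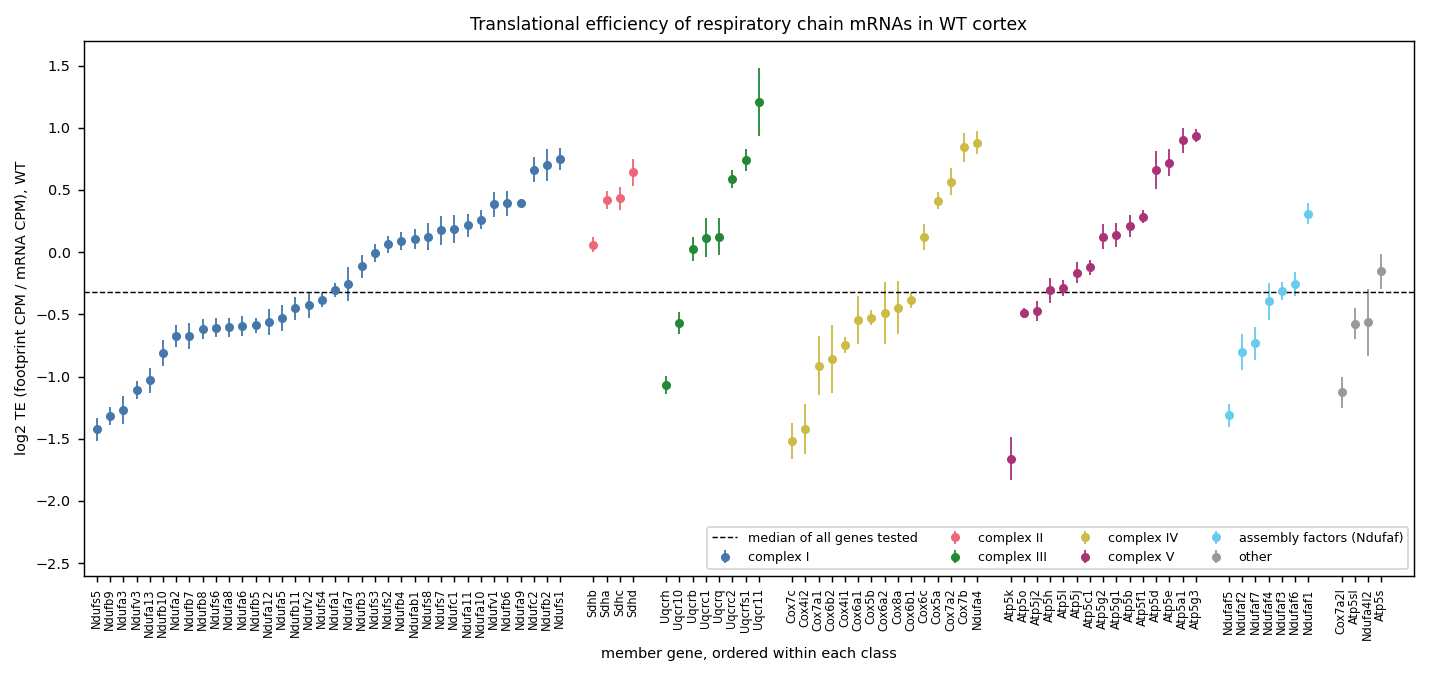
Translational efficiency of the 89 members in WT cortex, as log2 of footprint CPM over mRNA CPM (vertical axis), ordered within each complex along the horizontal axis; points are means over 4 footprint and 4 mRNA libraries, bars are standard errors, and the dashed line is the median of all 13654 genes tested. All 4 complex II genes sit above the line, and Atp5k (ratio 0.316) and Uqcr11 (ratio 2.31) mark the lowest and the highest member.

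The lowest TE in WT belonged to Atp5k, the e subunit that helps ATP synthase to dimerise, at 0.316 (log2 -1.66 ± 0.174, standard error, SE). The lowest of the other complexes were Cox7c (0.349), Ndufs5 (0.372), Uqcrh (0.477) and Sdhb (1.04), and Ndufaf5 (0.403) was lowest among assembly factors and Cox7a2l (0.458), a factor that joins respiratory complexes into supercomplexes, among the other proteins. Except for Sdhb, these mRNAs held fewer footprints per mRNA than the median gene. The highest was Uqcr11, a small subunit of complex III, at 2.31 (log2 1.21 ± 0.273), followed by Atp5g3 at 1.91, which encodes the c subunit of the ATP synthase rotor. Atp5a1, the alpha subunit of the catalytic head, stood at 1.87, Ndufa4 at 1.84, Ndufs1, the largest iron-sulfur subunit of complex I, at 1.68, Sdhd at 1.56 and Ndufaf1 at 1.24. The order of members was alike in the mutants: across the 89 members, log2 TE in WT correlated with that in FXS at Pearson r = 0.967 (Spearman 0.957), with S6K1 at 0.914 (0.913) and with DKO at 0.863 (0.866). These correlations are over genes, which share the libraries and the depth of each genotype, and the S6K1 and DKO values include the footprint libraries of batch 1.

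With Fmr1 alone missing, the fitted mRNA values of most respiratory chain genes lay slightly below WT, and no member passed the test. In FXS against WT, 0 of 90 members were called at an adjusted p under 0.05 by edgeR, where 0.155% of all 14215 genes were called. Without adjustment, 0 members were higher and 20 lower at p under 0.05, against 6.77 and 5.95% of all genes. DESeq2 called 1 member, Cox5a (1.44% of all genes), and limma voom 0 (0.162%). The fitted log2 change was above 0 in 17 of the 90 members, against 47.9% of all genes, with a median of -0.11 (quartiles -0.15 and -0.02) beside -0.01 over all genes. By complex, the median was -0.11 in I, -0.07 in II, -0.04 in III, -0.13 in IV and -0.12 in V. Within complex I, 28 of the 29 accessory subunits had fitted values below 0 (median -0.14, 11 lower at an unadjusted p under 0.05), and 5 of the 7 core subunits (median -0.05, 0 at that p). Within complex V, the 10 membrane and stalk subunits had a median of -0.12 and the 5 subunits of the F1 head 0.03.

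Cox5a, a structural subunit of complex IV, showed the pattern most plainly. Its mRNA was 331, 341, 326 and 297 CPM in the 4 WT libraries and 293, 287, 277 and 261 in the 4 FXS libraries. Every FXS library lay below every WT library (log2 differences within batches of -0.17, -0.24, -0.24 and -0.18), while S6K1 (370, 351, 348 and 282) and DKO (294, 323, 314 and 292) overlapped WT. The fitted change in FXS was -0.21 ± 0.063 (SE; adjusted p = 0.165 by edgeR). Ndufaf2, an assembly factor of complex I, had the smallest p of all members, with 36.01, 38.7, 35.9 and 29.6 CPM in WT and 31.7, 29.6, 26.7 and 26.5 in FXS. The ranges overlap, but the FXS library was below the WT library of its batch in each of batches 5 to 8, with log2 differences of -0.18, -0.38, -0.42 and -0.16 (fitted -0.29 ± 0.079; adjusted p = 0.122). Ndufa1 (-0.27, adjusted p = 0.181) and Ndufa12 (-0.24, 0.200), accessory subunits of complex I, and Uqcrb (-0.22, 0.193), a ubiquinone-binding subunit of complex III, followed. When WT and FXS were fitted without the other genotypes, 8 members were called, all lower: Cox5a, Ndufa1, Ndufa12, Ndufa5, Ndufb5, Uqcrb, Atp5j and Atp5k. That fit called 3.20% of all genes, and more of them higher (279) than lower. Among the members followed in every contrast, the catalytic subunits Atp5a1 and Atp5b were at 0.03 and 0.04 in FXS, Sdha at 0.03, Sdhb at -0.11, Cox4i1 at -0.12, Ndufa4 at -0.10 and Uqcrfs1, the Rieske iron-sulfur protein, at -0.07, none of them called.

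Each mRNA batch held every genotype once, so the difference could be read within batches. The median over the 90 members of FXS minus WT was -0.03, -0.21, -0.05 and -0.12 (log2) in batches 5 to 8, with 37, 9, 27 and 12 members above 0. It was below 0 in all 4 batches and differed several-fold in size between them. On a scale of the median log2 CPM of the members against the WT mean, the WT libraries stood at 0.00, 0.07, -0.09 and 0.03 and the FXS libraries at -0.05, -0.16, -0.15 and -0.08. The group means were 0.00 ± 0.069 (SD, n = 4) and -0.11 ± 0.056, and WT replicate 3 lay among the FXS libraries. The fitted median of -0.11 became -0.06 when WT replicate 4 was left out and -0.15 when FXS replicate 4 was. The list of cytosolic ribosomal proteins moved in the same contrast by a median of -0.18 (39 of 77 lower at an unadjusted p under 0.05), the mitochondrial ribosomal proteins by -0.09 (13 of 77) and the proteasome subunits by -0.05, so values below 0 were not particular to the respiratory chain.

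**Figure D2:**
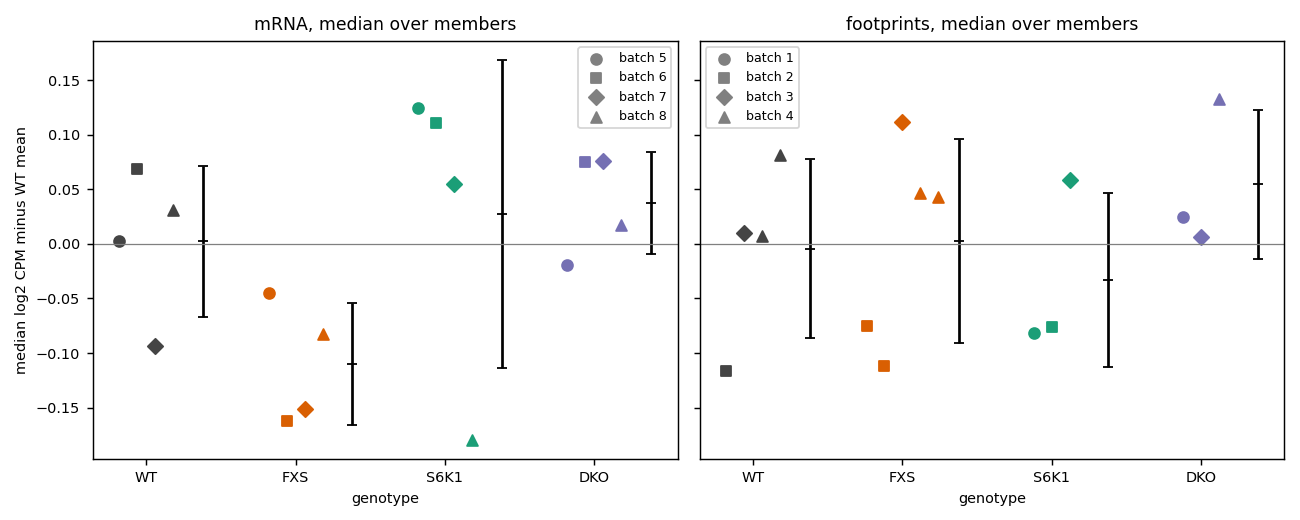
Median over the members of log2 CPM minus the WT mean of each gene (vertical axis) in every mRNA library (left) and footprint library (right), by genotype; marker shapes give the batch, and the black bars give the mean and SD of each genotype. FXS mRNA libraries lie between -0.16 and -0.05, and S6K1 mRNA spans -0.18 to 0.12.

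With S6K1 alone missing, the fitted mRNA values of the members centred close to WT. In S6K1 against WT, 0 of 90 members were called by edgeR (0.0211% of all genes), and 0 by DESeq2 or limma voom. At an unadjusted p under 0.05, 7 were higher and 0 lower (3.74 and 3.63% of all genes), and 57 of 90 had fitted values above 0 (51.2% of all genes), with a median of 0.02. The 7 were Ndufs1 (0.17) and Ndufv1 (0.18) of the complex I core, Ndufv1 being the subunit that binds NADH, Sdha (0.15) and Sdhc (0.17) of complex II, Uqcrc1 (0.17), a core protein of complex III, and Atp5a1 (0.14) and Atp5b (0.13) of the F1 head, with adjusted p values from 0.624 to 0.657. All 7 core subunits of complex I and all 5 of the F1 head had fitted values above 0 (medians 0.08 and 0.05), and 5 of the 16 complex IV subunits did (median -0.03). The libraries of this genotype disagreed: the medians within batches 5 to 8 were 0.14, 0.04, 0.14 and -0.22.

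When both genes were missing, 3 members passed the test in mRNA, all higher than in WT: Atp5d and Atp5g1 of complex V and Uqcrq of complex III. They are 3.33% of the 90 members, whereas 5.23% of all genes passed in this contrast by edgeR, 3.17% upward and 2.06% downward, so the share of members called was not above that of all genes. Limma voom called the same 3 (5.66% of all genes), and DESeq2 these and Cox8a (7.63%). At an unadjusted p under 0.05, 12 members were higher and 4 lower (12.2 and 10.2% of all genes), 56 of 90 had fitted values above 0 (49.4% of all genes), and the median was 0.04. By complex, the median was 0.03 in I, 0.09 in II, 0.03 in III, 0.05 in IV and 0.05 in V, and -0.12 among the 7 assembly factors.

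Atp5d (chr10:80138698-80145828 in GRCm38.p6) encodes the delta subunit of the central stalk, which turns in the F1 head. Its mRNA was 223, 246, 228 and 263 CPM in the WT libraries (mean 240.2 ± 17.98, SD, n = 4) and 271, 317, 312 and 286 in DKO (297 ± 21.6). All DKO libraries lay above all WT libraries, with a fitted change of 0.30 ± 0.070 (SE; adjusted p = 0.0155). FXS (262, 249, 253 and 252) and S6K1 (254, 271, 240 and 228) lay within or near the WT range. Within batches 5 to 8 the DKO library was above its WT library by 0.28, 0.37, 0.45 and 0.12 (log2).

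Atp5g1 (chr11:96072793-96075694) is 1 of the 3 genes, with Atp5g2 and Atp5g3, that encode the c subunit of the rotor ring. It stood at 268, 268, 236 and 272 CPM in WT (261 ± 16.8) and 309, 306, 329 and 324 in DKO (317 ± 11.2). The groups again did not overlap, and the fitted change was 0.28 ± 0.072 (adjusted p = 0.0259), with 0.21, 0.19, 0.48 and 0.25 within batches 5 to 8. Uqcrq (chr11:53427922-53430831), a small subunit of complex III, stood at 101, 102, 87.0 and 114 CPM in WT (101 ± 10.9) and 115, 135, 131 and 120 in DKO (125 ± 9.05). Its lowest DKO library and highest WT library were nearly level, and the fitted change was 0.31 ± 0.087 (adjusted p = 0.0381), with 0.19, 0.40, 0.59 and 0.08 within batches. Atp5g1 and Uqcrq lie on the chromosome that holds Rps6kb1 (chr11:86498869-86544885), Atp5g1 nearer to it. Atp5h and Uqcr10 lie on chr11 too and were not called. In S6K1 against WT, Atp5g1 mRNA differed by 0.05, 0.04, 0.15 and -0.20 within batches 5 to 8. Uqcrq differed there by 0.16, 0.22, 0.28 and -0.23, and neither was called. The part of position in these values was not tested. The calls depended on the libraries included. Leaving out WT replicate 1, 2 or 3 or DKO replicate 2 or 3 left 0 members called. Leaving out WT replicate 4 gave 6. Over all such fits, the change ran from 0.27 to 0.37 for Atp5d, 0.23 to 0.32 for Atp5g1 and 0.25 to 0.40 for Uqcrq. The share of all genes called in these fits is not given here.

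The members that rose in mRNA were not called in footprints. Atp5d footprints were 312, 361, 366 and 501 CPM in WT and 210, 284 and 474 in DKO, with a fitted change, after the batch term, of 0.02 ± 0.132. Atp5g1 footprints were 249, 289, 287 and 327 in WT and 226, 263 and 333 in DKO (0.05 ± 0.085), and Uqcrq footprints 93.7, 104, 106 and 140 in WT and 72.9, 89.4 and 130 in DKO (0.03 ± 0.109). The genotypes overlapped in each case, and the lowest value of each gene came from the batch 1 libraries (in S6K1 replicate 1, 173 CPM for Atp5d, 183 for Atp5g1 and 58.2 for Uqcrq). TE in DKO against WT was -0.29 for Atp5d (adjusted p = 0.217), -0.23 for Atp5g1 (0.199) and -0.29 for Uqcrq (0.220), none called.

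**Figure D3:**
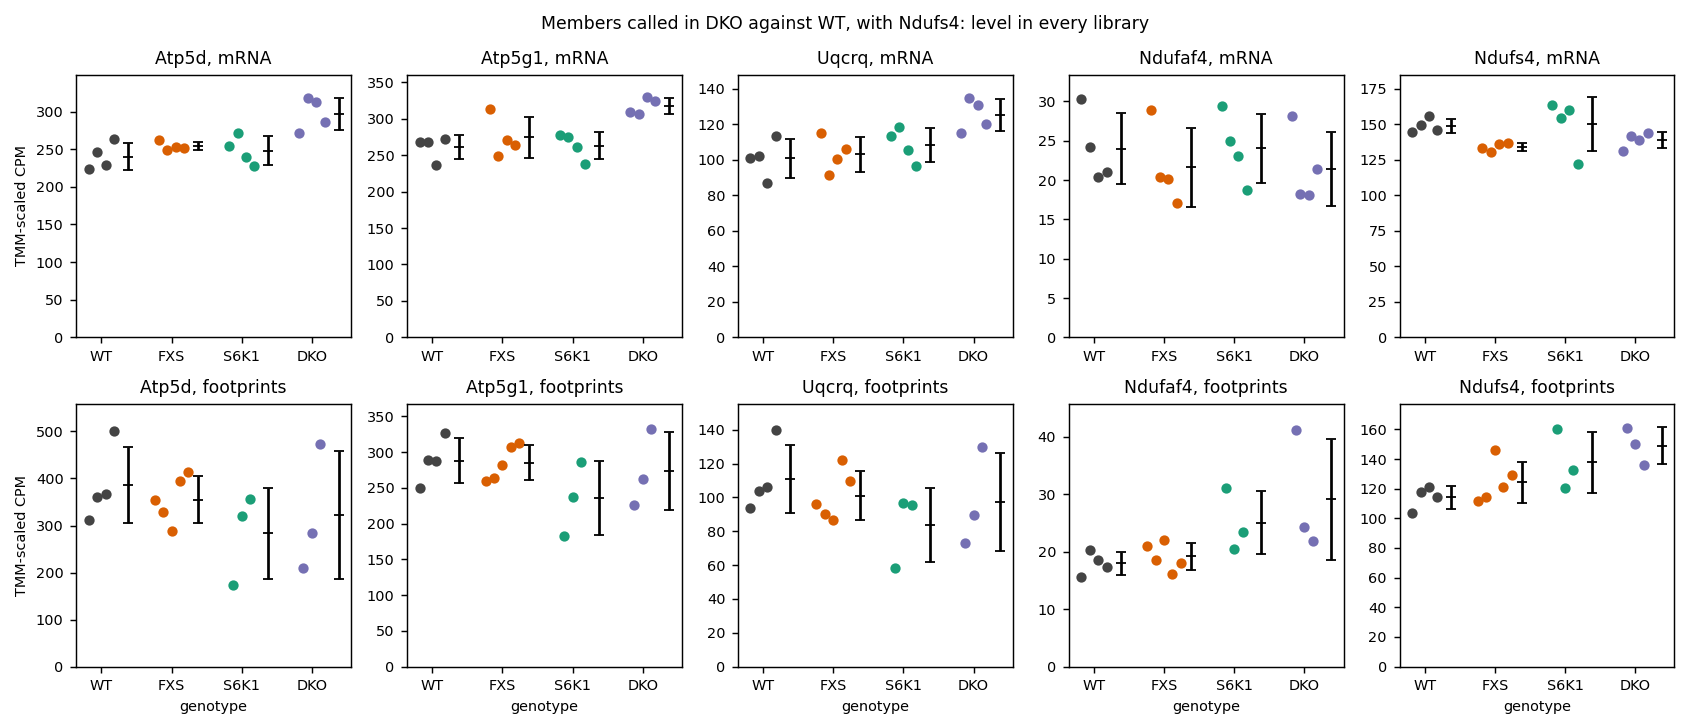
TMM-scaled CPM (vertical axis, from 0) of the 4 members called in DKO against WT and of Ndufs4 in every mRNA library (top) and footprint library (bottom), by genotype; black bars are mean and SD. DKO mRNA of Atp5d, Atp5g1 and Uqcrq lies above WT, and 1 DKO footprint library of Ndufaf4 reaches 41.1 CPM.

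In the complexes without a called mRNA, the member of smallest p in DKO against WT was Ndufa11, a membrane subunit of complex I (0.21, adjusted p = 0.127), Sdhd (0.18, 0.180), and Cox8a, the common form of a small complex IV subunit (0.31, 0.130). Ndufaf2 had the smallest p of the assembly factors and was below WT (-0.25, 0.0658), and Atp5s of the other proteins (-0.17, 0.450). None of these was called by edgeR with all libraries; Cox8a was called in 2 of 15 alternatives, with DESeq2 (adjusted p = 0.0372) and without WT replicate 4 (0.0105), and its adjusted p ran up to 0.584. The fitted values of the members followed in every contrast were: Ndufs1 -0.02, Ndufv1 0.14, Ndufs4 -0.10, Sdha 0.09, Sdhb 0.06, Uqcrc1 0.16, Uqcrfs1 0.01, Cox4i1 -0.02, Cox5a -0.08, Ndufa4 0.13, Atp5a1 0.09 and Atp5b 0.12.

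Set directly against FXS, DKO had higher fitted mRNA values for nearly all subunits. In DKO against FXS, 0 of 90 members were called by edgeR (0.0281% of all genes), and 0 by DESeq2 or limma voom. Before adjustment, 35 members were higher and 2 lower at p under 0.05 (5.21 and 4.59% of all genes). Fitted values were above 0 in 78 of the 79 subunits of complexes I to V, which is 36 of 36 in I, 4 of 4 in II, 8 of 8 in III, 15 of 16 in IV and 15 of 15 in V, and in 3 of 7 assembly factors. Over all members it was 84 of 90 (51.5% of all genes), and their median was 0.13, and was 0.14 in I, 0.19 in II, 0.11 in III, 0.20 in IV and 0.13 in V. Within batches 5 to 8 it was 0.01, 0.21, 0.22 and 0.11, with 50, 80, 82 and 77 of 90 members above 0, so batch 5 showed little of it. The comparison shares its FXS libraries with FXS against WT, so the lower values there and the higher values here are not separate observations. On the scale of library medians, the mRNA means in FXS and DKO were -0.11 and 0.04 for the members. They were -0.19 and -0.06 for cytosolic ribosomal proteins, -0.10 and 0.01 for mitochondrial ribosomal proteins and -0.05 and -0.01 for proteasome subunits. Higher values in DKO than in FXS were thus not particular to the respiratory chain. The smallest p values belonged to Cox6a2 (0.62 ± 0.155; adjusted p = 0.223), Ndufc1 of complex I (0.37, 0.231) and Sdhc, the other membrane anchor of complex II (0.26, 0.284).

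Whether the loss of Fmr1 acted differently with and without S6K1 was read from the interaction, the DKO minus S6K1 difference minus the FXS minus WT difference. In mRNA, 0 members and 0% of all genes were called, 9 members were higher and 0 lower at an unadjusted p under 0.05 (1.84 and 1.65% of all genes), 75 of 90 had fitted values above 0 (50.6% of all genes), and the median was 0.12 beside 0.00 over all genes, with 0.14 in the accessory and -0.02 in the core subunits of complex I. DESeq2 and limma voom called 0. The median fell to 0.06 without S6K1 replicate 4 and rose to 0.16 without DKO replicate 1. Within batches 5 to 8, the median of DKO minus S6K1 was -0.14, -0.02, 0.02 and 0.22. That of FXS minus WT was -0.03, -0.21, -0.05 and -0.12, so in batch 5 the DKO minus S6K1 median was the lower. The interaction uses the same FXS libraries as the contrasts above and is not a separate observation. In DKO against S6K1, edgeR called 0 members (0.387% of all genes) with 8 higher and 5 lower at an unadjusted p under 0.05 (7.93 and 6.87% of all genes), limma voom 0 (0.274%) and DESeq2 3 (Atp5d, Atp5g1 and Cox8a), where DESeq2 called 2.49% of all genes. The median was 0.01, with 48 of 90 above 0 (49.1% of all genes).

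No respiratory chain gene passed the test in footprints. The counts of called members were 0 of 89 in FXS (0.165% of all genes called), S6K1 (0.00717%) and DKO (0.366%) against WT, in DKO against FXS (0.0143%), in DKO against S6K1 (0.00717%) and in the interaction (0%), by edgeR, DESeq2 and limma voom alike. Cox7b2 was not tested because it failed the filter on low counts, with 19 footprints in all 4 WT libraries together. Unadjusted, at p under 0.05, 3 members were higher and 1 lower in FXS (4.09 and 5.78% of all genes), 3 and 0 in S6K1 (4.22 and 4.52%), and 7 and 0 in DKO (7.50 and 9.56%). The same counts were 1 and 1 in DKO against FXS (2.76 and 3.43%), 8 and 0 in DKO against S6K1 (4.21 and 4.46%), and 0 and 1 in the interaction (1.30 and 1.76%). Fitted values were above 0 in 51 members in FXS (49.7% of all genes), 42 in S6K1 (45.8%), 67 in DKO (48.0%), 63 in DKO against FXS (48.2%), 67 in DKO against S6K1 (49.6%) and 60 in the interaction (51.8%). The median was 0.01 in FXS, -0.00 in S6K1 and 0.07 in DKO, where the medians by complex were 0.07 in I, 0.07 in II, 0.02 in III, 0.02 in IV and 0.12 in V. The members of smallest p in DKO were Ndufs4 in I (0.25 ± 0.076; adjusted p = 0.147), Sdhb in II (0.15, 0.345), Uqcrc2 in III (0.17, 0.314), Cox5a in IV (0.21, 0.294), Atp5f1 in V (0.22, 0.223), Ndufaf4 among assembly factors (0.36, 0.148) and Cox7a2l among the others (0.25, 0.170).

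TE in FXS had fitted values above WT for most members, in the reverse direction of their mRNA. In FXS against WT, 0 of 89 were called by edgeR (0.0952% of all genes) and 0 by DESeq2 or limma voom. Of them, 16 were higher and 1 lower at an unadjusted p under 0.05 (5.66 and 7.70% of all genes), 68 were above 0 (47.7% of all genes), and the median was 0.14 beside -0.01 over all genes. It was 0.14 in I, 0.06 in II, 0.01 in III, 0.16 in IV and 0.14 in V. The accessory subunits of complex I were above 0 in 27 of 29 (median 0.16) and the core subunits in 2 of 7 (-0.06), and the membrane and stalk subunits of complex V in 9 of 10 (0.15) and those of the F1 head in 2 of 5 (-0.07). TE and mRNA of a contrast use the same mRNA libraries, so a lower mRNA value enters TE with the opposite sign, and the footprint median in this contrast was 0.01. Cytosolic ribosomal proteins had a TE median of 0.27 in the same contrast (46 of 77 higher at an unadjusted p under 0.05), mitochondrial ribosomal proteins 0.10 and proteasome subunits 0.12.

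In S6K1 against WT, 0 members were called for TE (0.0293% of all genes), with 1 higher and 1 lower at an unadjusted p under 0.05 (3.17 and 4.34%), 35 above 0 (45.1%), a median of -0.05 and values below 0 in all 4 complex II and all 7 core complex I mRNAs. In DKO against WT, 1 member was called, Ndufaf4, where 4.85% of all genes were called (1.85% higher and 3.00% lower). At an unadjusted p under 0.05, 8 members were higher and 5 lower (10.3 and 14.6% of all genes), 50 were above 0 (47.9%), and the median was 0.03, with 0.02 in I, -0.03 in II, -0.08 in III, 0.00 in IV and 0.04 in V. DKO against FXS had 0 called (0.0146% of all genes), 0 higher and 6 lower at an unadjusted p under 0.05 (4.45 and 3.90%), 22 above 0 (47.5%) and a median of -0.09. DKO against S6K1 had 0 called (0.00732%), 12 higher and 3 lower (7.27 and 7.35%), 57 above 0 (49.5%) and a median of 0.05. The interaction had 0 called (0%), 2 higher and 5 lower (2.36 and 1.78%), 34 above 0 (51.7%) and a median of -0.06. In these contrasts with 0 calls, DESeq2 and limma voom also called 0.

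**Figure D4:**
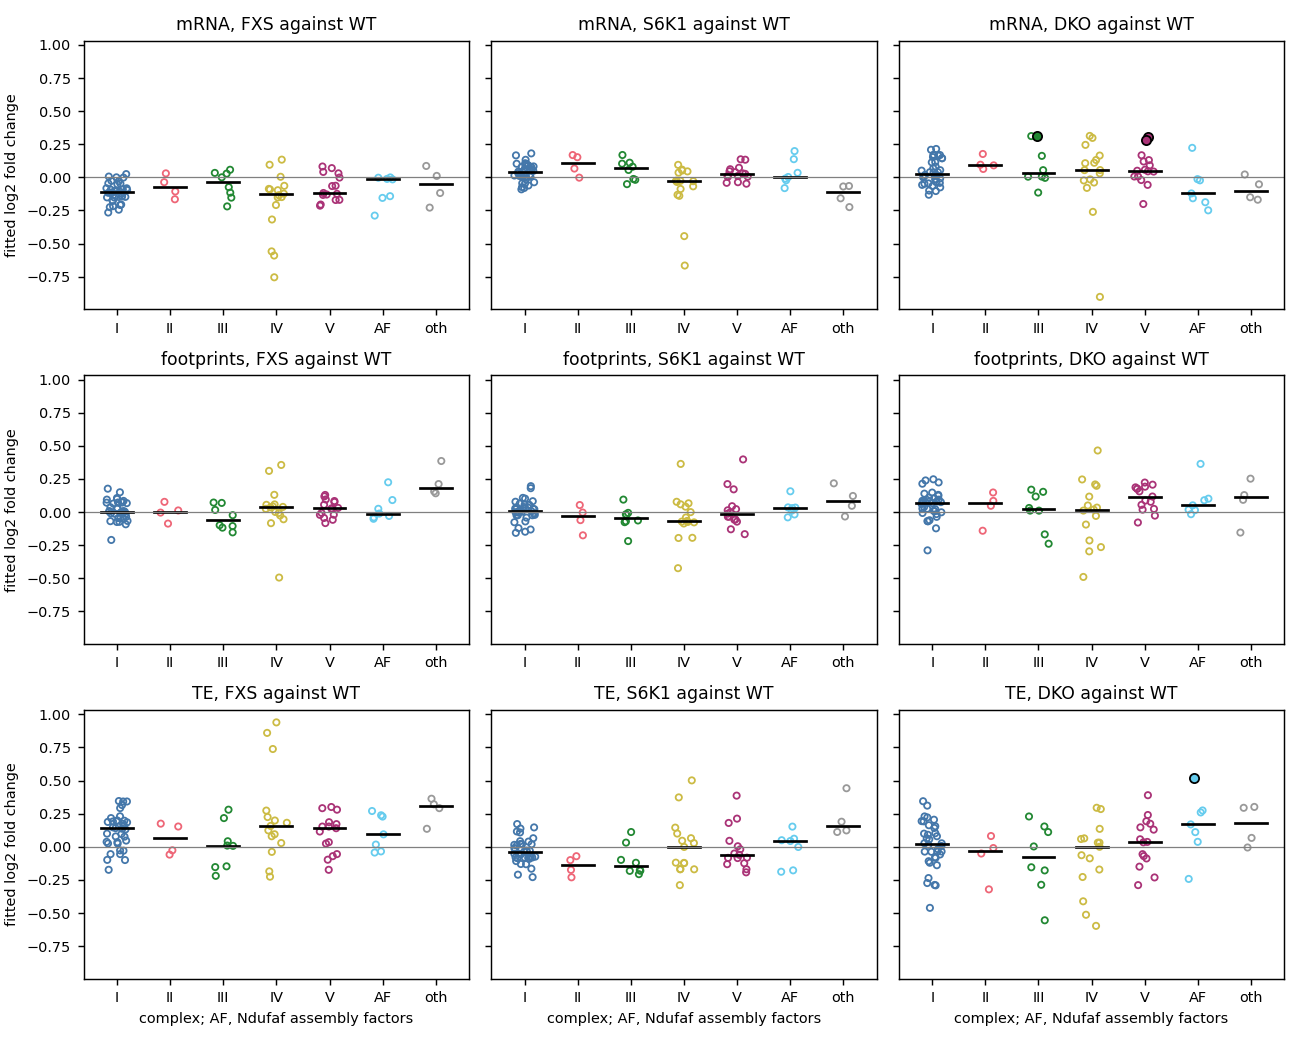
Fitted log2 fold change against WT (vertical axis) of each member in mRNA (top), footprints (middle) and TE (bottom) for FXS, S6K1 and DKO (columns), by complex (horizontal axis; AF, Ndufaf assembly factors; oth, other proteins); black lines are medians and filled points are members called at an adjusted p under 0.05. Only Atp5d, Atp5g1 and Uqcrq (mRNA) and Ndufaf4 (TE) are filled, all in DKO.

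Ndufaf4 (chr4:24898083-24905001) is needed to build complex I and is not part of the finished enzyme; its promoter stretch is among those printed above. Its mRNA was 30.3, 24.2, 20.4 and 21.0 CPM in WT and 28.1, 18.3, 18.1 and 21.4 in DKO, groups that overlap (-0.16 ± 0.099; adjusted p = 0.360). Its footprints were 15.7, 20.3, 18.5 and 17.4 CPM in WT (17.96 ± 1.95, SD, n = 4) and 41.1, 24.3 and 21.9 in DKO (29.1 ± 10.5, n = 3). Every DKO footprint library was above every WT library, and the highest, DKO replicate 1, came from batch 1, as did the highest S6K1 library (31.1, beside 20.5 and 23.4). That batch has no WT library to set beside them. TE in DKO was higher by 0.52 ± 0.148 (adjusted p = 0.0438), and was 0.24 in FXS (0.443) and 0.15 in S6K1 (0.872). Without DKO footprint replicate 1 the value was 0.46 with an adjusted p of 0.0644. Over 23 alternatives, the value ran from 0.45 to 0.86 and was called in 6, with adjusted p values from 0.0187 to 0.144.

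Ndufs4 (chr13:114287795-114388094), an accessory subunit of the NADH-oxidising module whose loss in people and mice causes Leigh syndrome, came closest to a call otherwise. Its footprints were 103, 118, 121 and 114 CPM in WT, 112, 115, 146, 121 and 129 in FXS, 160, 121 and 132 in S6K1 and 161, 150 and 136 in DKO. All DKO libraries exceeded all WT libraries, while FXS and S6K1 overlapped WT. The highest S6K1 and the highest DKO library both came from batch 1, which holds no WT library. Its mRNA was 145, 149, 156 and 146 CPM in WT and 131, 141, 139 and 144 in DKO. TE was 0.34 ± 0.106 in DKO (adjusted p = 0.0552), 0.29 in FXS (0.217) and 0.17 in S6K1. Over 23 alternatives, the DKO value was called in 3. Its adjusted p ran from 0.0210 with DESeq2 to 0.210 with edgeR without DKO footprint replicate 2. The other members of smallest p for TE in DKO were Sdhd in II (-0.32, 0.139), Uqcr11 in III (-0.55, 0.177), Cox6a1 in IV (-0.51, 0.115), Atp5j in V (0.39, 0.0933) and Cox7a2l (0.30, 0.145), none called.

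Values in the footprint libraries of batch 1 touched several of these members. Relative to the other libraries of their genotype, the mean log2 difference of both batch 1 libraries was -0.88 for Atp5d, -1.13 for Cox8a, -1.09 for Ndufa11, -1.01 for Uqcr11 and -0.90 for Cox6a1, and 0.66 for Ndufaf4, 0.73 for Ndufaf1, 0.61 for Cox6c and 0.56 for Uqcrb. Over the 89 members the median was -0.04 and the SD 0.44, and over all 13953 genes 0.00 and 0.44. Members lower by more than 0.5 in both libraries numbered 12 (13.5%, against 8.49% of all genes), and members higher 3 (3.37%, against 6.92%). The part of this batch in the S6K1 and DKO footprint values beyond the batch term was not tested.

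The tissue-type isoforms among the members were scarce in cortex and none was called. Cox6a2, the heart and skeletal muscle form of a complex IV subunit, stood at 9.86, 9.54, 7.08 and 11.03 CPM in WT mRNA, 8.15, 6.29, 7.64 and 7.92 in FXS, 8.79, 8.08, 10.01 and 7.48 in S6K1 and 10.3, 14.4, 11.1 and 10.6 in DKO. FXS and DKO did not overlap, and both overlapped WT. The change was -0.32 ± 0.158 in FXS and 0.30 ± 0.154 in DKO (adjusted p = 0.257), and its footprints, between 2.40 and 8.25 CPM in DKO, overlapped those of WT (4.65 to 9.67). Among markers of inhibitory neurons, 1 of 6, Pvalb, was called lower in FXS mRNA (-0.60, adjusted p = 0.00927) and in DKO mRNA (-0.39, 0.0235), and the summed level of the 6 ran from 709 to 1009 CPM in WT, 714 to 931 in FXS and 693 to 1055 in DKO. The part of these cells in the Cox6a2 values was not tested.

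Cox4i2, an oxygen-sensitive form of subunit 4, stood at 2.33, 3.94, 2.67 and 4.21 CPM in WT mRNA and 1.83, 1.77, 2.76 and 2.28 in FXS, groups that overlap (-0.59 ± 0.238; adjusted p = 0.305). Its TE was 0.94 ± 0.328 in FXS (adjusted p = 0.237) at footprint levels of 0.733 to 1.09 CPM in WT and 0.747 to 1.72 in FXS. Cox7a1, the muscle form of subunit 7a, was at 1.92, 2.84, 1.83 and 1.31 CPM in WT and 1.39, 0.537, 1.53 and 1.14 in FXS (-0.75 ± 0.327; adjusted p = 0.334). Ndufa4l2, a hypoxia-induced relative of Ndufa4, was at 0.750 to 2.39 CPM in WT mRNA and 1.28 to 2.02 in DKO. The testis-type Cox6b2 and Cox7b2 were at 0.890 to 2.21 and 0.916 to 1.45 CPM in WT mRNA, and Cox7b2 was at -0.90 ± 0.404 in DKO mRNA (adjusted p = 0.187). Members were chosen by their WT mRNA level. For genes just inside that level, the choice itself favours lower values in the other genotypes, so no change is read from them.

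**Figure D5:**
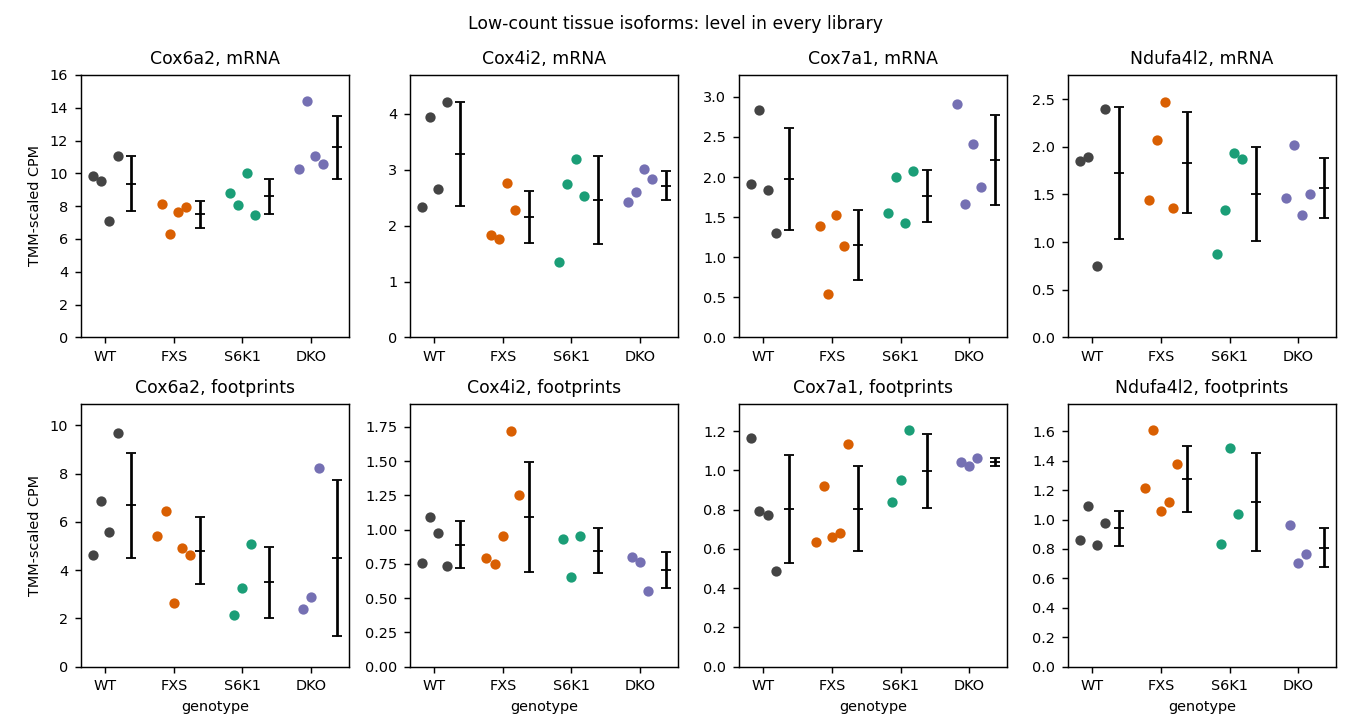
TMM-scaled CPM (vertical axis, from 0) of Cox6a2, Cox4i2, Cox7a1 and Ndufa4l2 in every mRNA library (top) and footprint library (bottom), by genotype; black bars are mean and SD. Cox6a2 mRNA lies between 6.29 and 8.15 CPM in FXS and between 10.3 and 14.4 CPM in DKO.

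Other genes of mitochondrial energy metabolism gave several calls in DKO against WT, where the share called in mRNA was 5.23%. Of 3 electron carriers and partners outside the symbol rule, Cyc1, the cytochrome c1 of complex III, was called higher in mRNA (0.27, adjusted p = 0.0246). Of 13 citric acid cycle genes, Ogdh (0.34, 0.00444) and Cs (0.20, 0.0425), which encode a subunit of oxoglutarate dehydrogenase and citrate synthase, were called higher and Suclg2, a succinyl-CoA ligase subunit, lower (-0.47, 0.00880), with a median of 0.11. Of 11 regulators of mitochondrial biogenesis, Esrra, a nuclear receptor that drives respiratory genes, was called higher (0.29, 0.0301). Of 32 assembly factors outside the rule, 0 were called in mRNA by edgeR. At an unadjusted p under 0.05, 4 were higher and 2 lower (12.2 and 10.2% of all genes). For TE, Cox19, a complex IV assembly factor, was called higher (0.62, 0.0323) and Ogdh lower (-0.30, 0.0439), where 4.85% of all genes were called. In FXS against WT, 0 genes of these lists were called in mRNA or TE by edgeR. At an unadjusted p under 0.05 in mRNA, 3 of 13 citric acid cycle genes were higher (6.77% of all genes). In the same test 1 of 32 assembly factors was lower (5.95% of all genes). For TE at that p, 3 of the 32 assembly factors were higher and 2 lower (5.66 and 7.70% of all genes).

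Markers of other cell types moved in the same libraries. In footprints, the oligodendrocyte marker Cnp was called lower in FXS and in DKO, and Opalin in DKO, and the summed level of the 8 oligodendrocyte markers was 2749 to 3989 CPM in WT, 1752 to 2655 in FXS, 2574 to 2795 in S6K1 and 1856 to 2624 in DKO. The mRNA sums of the same 8 genes overlapped, at 1878 to 3019 CPM in WT and 1751 to 2764 in FXS. They were 1852 to 3160 in S6K1 and 1796 to 3265 in DKO. Slc17a7, the vesicular glutamate transporter of excitatory neurons, was called higher in DKO mRNA (0.33) and lower in DKO TE (-0.63), and the summed mRNA level of the 5 excitatory markers was 3335 to 4557 CPM in WT and 3555 to 5208 in DKO. Their summed footprint level was 3628 to 4272 CPM in WT and 2811 to 4359 in DKO. All 8 oligodendrocyte and all 5 excitatory markers were above 1 CPM on average in every genotype, as cortex holds both cell types. In mRNA, the summed level of 4 blood genes was 1169 to 1780 CPM in WT and 668 to 991 in DKO. Of the 4, 0 were called by edgeR and 1 was lower at an unadjusted p under 0.05 (10.2% of all genes). The part of cell composition in the values of the respiratory chain was not tested.

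The authors' deposited tables list 87 members in mRNA and 85 in footprints and TE for FXS and DKO against WT. In the authors' deposited table of DKO mRNA, 4 members had an adjusted p under 0.05 and were higher, Atp5d (0.30, 0.00127), Atp5g1 (0.28, 0.00546), Uqcrq (0.31, 0.0150) and Cox8a (0.31, 0.0441), and 1 was lower, Ndufaf2 (-0.25, 0.0456), where 8.12% of the 12876 genes listed were past that threshold. In the authors' deposited table of FXS mRNA, Cox5a was the 1 member past it (-0.20, 0.0325), where 1.45% of the genes listed were. For footprints and TE, the authors' deposited tables hold 0 members past it, where 2.47% (DKO) and 1.07% (FXS) of the genes listed were past it in footprints, and 0.725% (DKO) and 0.0167% (FXS) in TE. For TE in DKO they give Ndufs4 0.36 with an adjusted p of 0.0974 and Ndufaf4 0.53 with 0.299.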

How the data were processed

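Whole-number counts per gene symbol over coding sequences were deposited for 16 mRNA and 15 footprint libraries. The submitters' processing notes name cutadapt 2.0, Bowtie2, TopHat2, RSEM and mm10 without their roles; the counting rule, the strand setting and the treatment of reads shared by several genes are not given in the sources used here. Many respiratory chain genes have processed pseudogenes, so their levels are uncertain to that extent. The authors' deposited comparison tables hold log2 fold changes, a mean normalized signal, standard errors and test statistics (scores) and p-values; only the log2 fold changes and adjusted p-values were used.

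Genotype and batch came from the labels, and replicates were numbered in accession order. Counts were fitted with edgeR 4.0.16 (R 4.3.3; quasi-likelihood F-test, TMM factors, filterByExpr, batch as a term, all genotypes together), with Benjamini-Hochberg adjustment over all genes tested and calls at 0.05. TE differences came from 1 fit over the 31 libraries together, with a batch term per assay and TMM factors over genes tested in both assays. The model was tested on simulated data first. Those counts had the same dispersion for every gene and no batch effects, so they did not test how the model handles batches. Printed CPM values are TMM-scaled; the choice of members used plain CPM. Log2 levels per library used an offset of 0.5 CPM. Within mRNA batches, the deviations of libraries from their genotype means correlated at a median of 0.27 (24 pairs, lowest 0.0996), against -0.14 between batches (72 pairs), and for footprints at 0.30 (20 pairs) against -0.10 (63 pairs). No 2 libraries of a genotype agreed within sampling noise (chi-square over degrees of freedom was 4.73 or more). The labels do not say that replicates are separate animals, so p-values measure the spread between these libraries only.

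In each measure and contrast, called members of smallest adjusted p were named, up to 4 per complex; where a complex had no call in DKO against WT, its member of smallest p; and always 12 reference members, the tissue isoforms, the extremes of TE in WT, the targeted genes and called genes of the other lists. A few further members of smallest p in other contrasts, and those extreme in batch 1, were chosen after their values were seen. Naming by level within a complex was left out, since lengths are needed for it. The members and lists were chosen with earlier results of these data known. Alternatives tried were RLE factors, plain library totals, no filter, DESeq2 1.42.0, limma voom (3.58.1), no batch term, the compared genotypes alone, each library left out in turn, mRNA without batch 5, members of 10 CPM or more, and subunits alone; TMM factors over each assay's own genes were added after seeing the data. Some results for single marker genes are not reported here.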

Additional observations from a re-analysis of the deposited data

Results flagged for a closer look

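Of 72 groups of 4 or 5 libraries examined, 3 had 1 library far from the rest, and chance flags about 1 in 20 groups. The median of the 8 complex III mRNAs was lowest in FXS replicate 2, at -0.172 (log2, against the WT mean), where the gap to the nearest library was 0.865 of the whole range. In WT, replicate 3 was lowest for complex III at -0.029, with a gap of 0.881 of the range. Replicate 3 was also the lowest WT library for Atp5g1 mRNA, at 236 CPM beside 268, 268 and 272 (0.892 of the range), and without it the Atp5g1 difference in DKO was 0.23 with an adjusted p of 0.144 by edgeR's quasi-likelihood test.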

How the results depend on the processing

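The number of respiratory chain members called was small throughout and turned on the processing. In FXS mRNA it was 0, but 1 with DESeq2 and 8 when WT and FXS were fitted alone. In DKO mRNA the 3 calls became 0 with no replicate block (the batch term left out), and between 0 and 6 when 1 library was left out. DKO against S6K1 in mRNA gave 3 calls with DESeq2, and 0 to 1 when 1 library was left out, the 1 without S6K1 replicate 4. For TE in DKO the 1 call became 2 with DESeq2 and 0 with no filter, with no replicate block, with WT and DKO alone, without mRNA batch 5 and, since Ndufaf4 is no subunit, with subunits alone; it ran from 0 to 3 when 1 library was left out, 3 without WT footprint replicate 3. The share of all genes called is given above for only some of these fits. Without it, a move in the count of members cannot be told apart from a move over all genes. The cause of these moves was not tested. The footprint median in DKO against S6K1 ran from 0.015 (without S6K1 replicate 1) to 0.137 (without DKO replicate 2). No called value changed sign under any alternative run. Medians near 0 changed sign: S6K1 TE went from -0.05 to 0.03 with 2 genotypes alone, and the TE interaction from -0.06 to 0.01 without the block. Depth limits the isoforms most, several of which lie near 1 CPM.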
